A study of Mus musculus with 16 samples.

Results

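The genes described here are 10 genes that parietal cells of the stomach use to secrete acid. They were chosen by symbol, as Atp4a, Atp4b, Kcne2, Kcnq1, Slc26a7, Slc26a9, Clic6, Aqp4, Hrh2 and Esrrg. All 10 were found among the 24964 gene symbols of the count table, and all 10 were among the 15385 genes with enough counts to be tested. RNA from mouse stomach corpus was sequenced in 16 libraries, 4 in each of 4 groups. The mice were female and 8 weeks old, and each sample was a 4 mm corpus biopsy taken along the lesser curvature. WT mice were C57BL/6, and TTPΔARE mice (labelled TTP) were congenic on C57BL/6. TTP is tristetraprolin, the protein made from Zfp36, which binds AU-rich elements in transcripts and speeds their decay. In TTPΔARE mice the Zfp36 transcript lacks its own AU-rich element, and the labels do not say whether 1 or both alleles were changed. In the WT-A and TTP-A groups the adrenal glands, the main source of glucocorticoid hormones, had been removed, and the treatment label names gastric inflammation brought on by adrenalectomy. For WT-S and TTP-S, the treatment label reads SPEM, short for spasmolytic polypeptide-expressing metaplasia. SPEM cells are mucous cells that appear in injured corpus glands. The labels do not say what the letter S stands for or whether those mice had an operation, so S serves as a group name only.

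Parietal cells acidify the gastric lumen with a pump that exchanges cytoplasmic protons for potassium. The pump is stored in tubulovesicles and reaches the apical membrane when histamine, gastrin or acetylcholine stimulates the cell. Potassium must return to the lumen through channels for the pump to keep turning, chloride must follow the proton, and bicarbonate leaves through the basolateral membrane. Loss of parietal cells is the usual setting in which SPEM appears in corpus glands.

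TTP recognizes the heptamer UAUUUAU in 3′ untranslated regions, so these letters were searched in the 3′ UTR of the longest GENCODE M21 transcript of each gene. Of the 10 genes, 3 held the heptamer, namely Aqp4 with 3 copies and Slc26a7 and Esrrg with 2 copies each. Among the 14497 tested genes with an annotated 3′ UTR, 29.4% held at least 1 copy and 10.3% at least 2. Longer UTRs have more room for the letters: Slc26a7, Slc26a9, Aqp4, Hrh2 and Esrrg are the members with a 3′ UTR of at least 2000 bases, and among the 4234 tested genes with such a UTR 24.0% held at least 2 copies. The sites of Slc26a7 and Esrrg are shown with 11 bases on either side because they hold the letters that TTP is known to recognize. The heptamer is in capitals, and no binding was measured.
Slc26a7, 3′ UTR base 359: augguuuggauUAUUUAUaguccauuugu
Slc26a7, 3′ UTR base 2499: auuaaacaucaUAUUUAUgcaaauuaaau
Esrrg, 3′ UTR base 3214: ccagauuguugUAUUUAUuccacuauuuu
Esrrg, 3′ UTR base 3607: uuguguaaaugUAUUUAUuuuauauugua
Slc26a7 and Esrrg are described with their transcript levels further on, and both were called lower after adrenalectomy in WT with all 16 libraries and were not called different between the genotypes without it.

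The RefSeq promoter table (GRCm38.p6) held 5 of the 10 genes, namely Atp4a, Kcne2, Slc26a9, Hrh2 and Esrrg. Windows from 250 bases before to 50 bases after each start were searched on both strands for the estrogen-related receptor elements AAGGTCA and TCAAGGTCA, the GATA element AGATAA, the full glucocorticoid response element (AGAACA, then 3 bases of any kind, then TGTTCT) and its single arm AGAACA, and the cAMP element TGACGTCA. Of the 32851 windows in the table, 4.718% held AAGGTCA, 0.4231% TCAAGGTCA, 11.18% AGATAA, 0.009132% the full glucocorticoid element, 18.97% AGAACA and 1.79% TGACGTCA. AAGGTCA lies within TCAAGGTCA, and AGAACA within the full glucocorticoid element, so those searches overlap. In the windows of the 5 genes 2 matches were found. Kcne2 and Hrh2 had 2 windows each, Esrrg 4, and Atp4a and Slc26a9 1 each, and the shares above are per window. Kcne2 held AGAACA at position -121 from its second start, and Slc26a9 held AGATAA on the minus strand at position -141. The bases before the start are shown for Kcne2 and Slc26a9 because they hold the matches, in capitals, and for the pump gene Atp4a as a window without one. Hrh2 and Esrrg held no match either, and both were called lower after adrenalectomy in WT mice with all 16 libraries, as Kcne2 and Slc26a9 were.
Atp4a, chr7:30711959-30712208, plus strand: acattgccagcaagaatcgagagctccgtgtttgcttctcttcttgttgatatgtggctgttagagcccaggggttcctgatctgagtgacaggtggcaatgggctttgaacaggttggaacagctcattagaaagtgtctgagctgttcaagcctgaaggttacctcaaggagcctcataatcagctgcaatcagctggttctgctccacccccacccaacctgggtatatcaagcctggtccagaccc
Kcne2, second start, chr16:92295366-92295615, plus strand: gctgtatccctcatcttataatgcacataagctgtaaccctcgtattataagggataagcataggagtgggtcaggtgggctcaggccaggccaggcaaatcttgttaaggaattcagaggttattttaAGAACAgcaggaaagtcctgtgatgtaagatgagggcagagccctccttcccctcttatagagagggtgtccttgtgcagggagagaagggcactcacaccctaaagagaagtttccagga
Slc26a9, chr1:131743772-131744021, plus strand: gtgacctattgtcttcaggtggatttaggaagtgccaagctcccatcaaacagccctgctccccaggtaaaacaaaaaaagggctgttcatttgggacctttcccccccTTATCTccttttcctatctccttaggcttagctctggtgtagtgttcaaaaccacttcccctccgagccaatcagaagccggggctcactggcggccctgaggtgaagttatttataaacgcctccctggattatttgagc
A match is a run of letters and not a measured site, and the absence of the other elements concerns these windows only.

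The libraries held 17453930 to 25849472 counts, and a member had 210 to 328461 counts in a library. Zfp36, the gene with the altered allele, ranged from 55.1 to 65.8 CPM (counts scaled to a common library total) in WT-S and from 63.2 to 88.6 CPM in WT-A. In TTP-S the range was 115 to 129.5 CPM, and for TTP-A it was 110.5 to 131 CPM, so it was higher in every TTPΔARE library than in any WT library. The libraries WT-A 3 and WT-A 4 stood apart from the other 14: across 11493 genes, their deviation from the gene medians followed transcript GC content with a Spearman rho of 0.730 and 0.757, against at most 0.310 in absolute value elsewhere. The calls of the 10 genes in the comparisons with WT-A are therefore given with all 16 libraries, with the 14 others, and with offsets that remove the GC trend, and for other genes of the pathway each call that these fits change is given with the gene or with the counts over the lists. Values of cell type markers are given with all 16 libraries only. Chief cell and surface mucous markers were abundant in every library, and the summed antral markers Gast and Pdx1 reached at most 6.37 CPM. In bulk tissue, fewer parietal cells and less RNA per parietal cell cannot be told apart.

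The 10 genes covered a wide range of transcript levels, with the pump far above the rest. Per kilobase of the longest transcript, Atp4b was highest in WT-S at 4382 ± 254 CPM per kilobase, followed by Atp4a at 3712 ± 333 and Clic6 at 474 ± 38.7 (mean ± SD, n = 4). Kcne2 (133 ± 8.60), Slc26a9 (92.4 ± 8.52), Kcnq1 (74.6 ± 10.4) and Esrrg (66.9 ± 4.08 CPM per kilobase) formed a middle tier. Hrh2 (22.2 ± 1.30), Aqp4 (12.2 ± 2.85) and Slc26a7 (3.98 ± 1.16 CPM per kilobase) were lowest. This order of the group means was the same in all 4 groups. Some neighbours in this order differed by less than the larger of their SDs, namely Kcnq1 and Esrrg in WT-S, TTP-S and TTP-A, and in WT-A Atp4b and Atp4a (3655 ± 959 and 3274 ± 573 CPM per kilobase) and Slc26a9 and Kcnq1 (67.9 ± 9.90 and 65.7 ± 9.26 CPM per kilobase). Together the 10 genes took 2.15% ± 0.0857 of the counts in WT-S and 2.01% ± 0.286 in WT-A. The shares for TTPΔARE mice were 2.14% ± 0.0489 (S) and 2.02% ± 0.0948 (A). The wide SD in WT-A came from WT-A 4, at 2.43%, against 1.82% to 1.99% in the other 3 libraries.

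**Figure D1:**
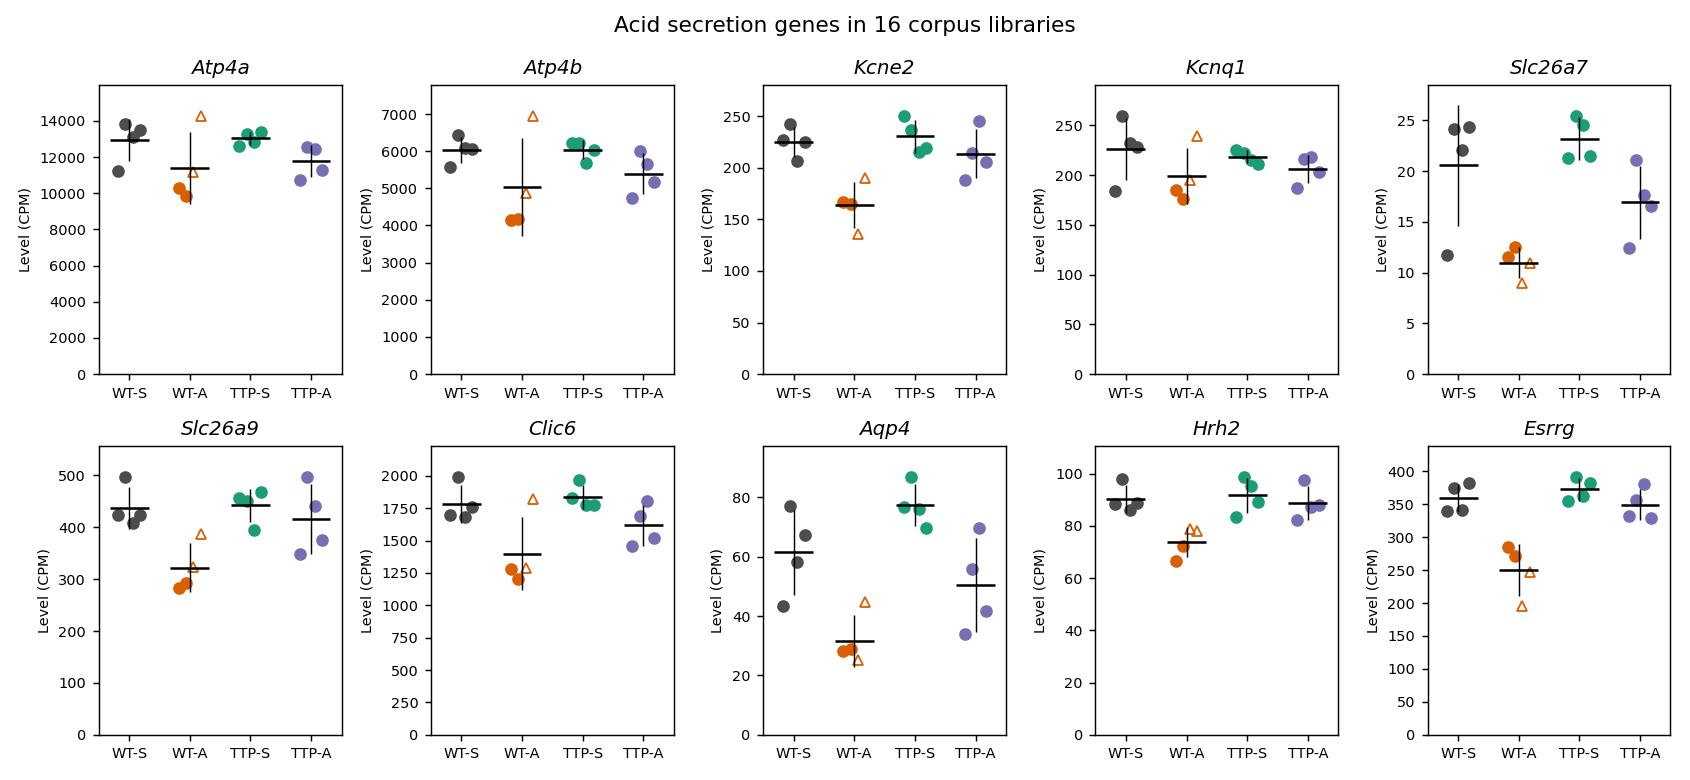
CPM of each of the 10 genes (vertical axis, from 0) in the 4 groups (horizontal axis), with 1 point per library, the group mean as a bar and the SD as a line; open triangles are WT-A 3 and WT-A 4. WT-A points sit below WT-S without overlap for Kcne2, Slc26a9, Hrh2 and Esrrg, while WT-A 4 lies above the lowest WT-S point for Atp4a, Atp4b, Kcnq1, Clic6 and Aqp4, as WT-A 1 and WT-A 3 do for Kcnq1 and WT-A 2 does for Slc26a7.

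After adrenalectomy in WT mice, all 10 acid secretion genes had negative log2 fold changes, as did 48.6% of all genes tested, and 7 of the 10 passed the test. The water channel gene Aqp4 fell by 48.5% and the anion exchanger gene Slc26a7 fell by 46.7%, the largest changes among the 10 in the fit of all 16 libraries. Esrrg, a transcription factor of parietal cells, fell by 30.5%, and the potassium channel subunit Kcne2 fell by 27.0%. The pump genes Atp4a and Atp4b and the channel gene Kcnq1 did not pass. With GC offsets Aqp4 was at -0.53 (adjusted p = 0.245), Slc26a7 at -0.35 (adjusted p = 0.356) and Esrrg at -0.22 (adjusted p = 0.0584), none of them called, and Slc26a7 was not called with the 14 libraries either, at -0.78 (adjusted p = 0.0841). The median log2 fold change of the 10 was -0.40, against 0.0094 over all tested genes. A gene is called here when the adjusted p of edgeR's quasi-likelihood test (Benjamini-Hochberg over 15385 genes) is under 0.05. Over all genes tested, 8.85% were called lower in this comparison. The 4 libraries of WT-A all lay below the 4 of WT-S for 4 of the 10 genes, where 8.48% of all genes tested did so.

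The pump came first by abundance. Atp4a (chr7:30712209-30725534, GRCm38, plus strand) encodes the catalytic alpha subunit of the H+/K+ ATPase. It was at 11255, 13846, 13112 and 13528 CPM in WT-S libraries 1 to 4 and at 10313, 9835, 11206 and 14281 CPM in WT-A libraries 1 to 4. WT-A 4 had the highest value of the 8, while WT-A 1, 2 and 3 lay below every WT-S library, WT-A 3 only just. The log2 fold change was -0.18 (SE 0.105, adjusted p = 0.220). Atp4b (chr8:13386205-13396825, minus strand) encodes the beta subunit, which the pump needs for its assembly and trafficking. Its levels were 5577, 6429.9, 6086 and 6062 CPM in WT-S and 4146, 4163, 4888 and 6949 CPM in WT-A. The pattern was that of Atp4a, with 3 WT-A libraries below all of WT-S and WT-A 4 above them all. edgeR gave a log2 fold change of -0.26 (SE 0.131, adjusted p = 0.158). Without WT-A 4 both subunits were called lower, with log2 fold changes of -0.31 for Atp4a (adjusted p = 0.0226) and -0.46 for Atp4b (adjusted p = 0.00390).

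The apical potassium channel that feeds the pump is built from Kcnq1, the pore-forming subunit, and Kcne2, its accessory subunit. Kcne2 (chr16:92292389-92298129, plus strand) was at 227, 242, 206 and 225 CPM in WT-S and at 167, 165, 135 and 189.7 CPM in WT-A. Every WT-A library lay below every WT-S library. This was a log2 fold change of -0.45 (SE 0.0952, adjusted p = 0.00604), and the call was kept in all 8 fits that left out 1 of these libraries. With GC offsets Kcne2 was at -0.30 and only just called (adjusted p = 0.0499). Kcnq1 (chr7:143106362-143427042, plus strand) ranged from 184 to 259.6 CPM in WT-S and from 176 to 239 CPM in WT-A, with overlap. Its log2 fold change was -0.19 (SE 0.0992, adjusted p = 0.185), and among the fits that left out 1 library it was called only without WT-S 1 (adjusted p = 0.0455) or without WT-A 4 (adjusted p = 0.0408). Kcnq1 has an antisense partner, Kcnq1ot1, and it is not given in the sources used here whether counting used strand, so reads of the pair cannot be told apart.

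Of the anion transporters, Slc26a7 is a basolateral chloride and bicarbonate exchanger, Slc26a9 is a chloride transporter of gastric epithelium, and Clic6 belongs to the chloride intracellular channel family. Slc26a7 (chr4:14502430-14621805, minus strand) was at 11.8, 24.1, 22.1 and 24.4 CPM in WT-S and at 11.5, 12.6, 8.93 and 10.96 CPM in WT-A. All WT-A libraries were low, and WT-S 1 was as low as they were. The log2 fold change was -0.91 (SE 0.199, adjusted p = 0.00821). Slc26a9 (chr1:131744022-131771504, plus strand) was at 424, 497, 407 and 423 CPM in WT-S and at 283, 293, 324 and 387 CPM in WT-A. The groups did not overlap. Its log2 fold change was -0.44 (SE 0.113, adjusted p = 0.0158), and the call was lost without WT-S 2 (adjusted p = 0.0629). Clic6 (chr16:92485736-92541243, plus strand) lies on the same chromosome as Kcne2. It was at 1694, 1993, 1679 and 1757 CPM in WT-S and at 1279, 1204, 1292 and 1819 CPM in WT-A. WT-A 1 to 3 were below all of WT-S, and WT-A 4 was within the WT-S range. edgeR gave a log2 fold change of -0.35 (SE 0.111, adjusted p = 0.0387). This call was made in all 3 fits, with 16 libraries, 14 libraries and GC offsets, but among the fits that left out 1 library it was lost without WT-S 2 (adjusted p = 0.129), WT-S 3 (0.0620), WT-S 4 (0.0792), WT-A 1 (0.0584), WT-A 2 (0.0809) or WT-A 3 (0.113).

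Aqp4 encodes aquaporin 4, a water channel of the basolateral membrane of parietal cells. It was at 43.3, 77.2, 58.1 and 67.1 CPM in WT-S and at 28.1, 28.8, 25.3 and 44.6 CPM in WT-A. WT-A 1 to 3 lay close together below all of WT-S, and WT-A 4 was just above the lowest WT-S library, WT-S 1. This was a log2 fold change of -0.96 (SE 0.230, adjusted p = 0.0137), with a 95% confidence interval of -1.45 to -0.47. The call was lost by little without WT-S 2 (adjusted p = 0.0515) and without WT-A 3 (adjusted p = 0.05004).

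Both regulators were called lower as well. Hrh2 (chr13:54192129-54236180, plus strand) encodes the histamine H2 receptor, through which histamine drives secretion. It was at 88.3, 98.1, 86.2 and 88.9 CPM in WT-S and at 66.5, 72.4, 79.0 and 77.9 CPM in WT-A. The groups did not overlap, although the difference was the smallest among the genes called with 16 libraries. The log2 fold change was -0.29 (SE 0.0727, adjusted p = 0.0144), and the call was lost without WT-S 2 (adjusted p = 0.0586). Esrrg (chr1:187608791-188214885, plus strand) encodes estrogen-related receptor gamma, a nuclear receptor that controls ion transport and mitochondrial genes in parietal cells. It was at 340.2, 374, 341 and 382 CPM in WT-S and at 285, 271, 195 and 247 CPM in WT-A. WT-S libraries lay close together, and all WT-A libraries were below them, WT-A 3 the lowest. edgeR gave a log2 fold change of -0.53 (SE 0.0922, adjusted p = 0.00261), the smallest adjusted p of the 10 in the 16-library fit, and it was called in all 8 fits that left out 1 library and with the 14 libraries, at -0.37 (adjusted p = 0.00513), though not with GC offsets.

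Which of the 10 genes passed in WT depended on how the pair WT-A 3 and WT-A 4 was treated. With 16 libraries, the genes of lowest GC content (Slc26a7 at 38.0%, Aqp4 at 41.4% and Esrrg at 42.5%) had the largest differences, and those of highest GC content (Atp4b at 54.1%, Atp4a at 55.8% and Kcnq1 at 56.9%) the smallest, while the 4 genes between them did not follow their GC content in order. With the 14 other libraries, which gave 15597 genes to test, 8 of the 10 were called lower, where 5.67% of all genes tested were. The pump genes then passed, with log2 fold changes of -0.36 (adjusted p = 0.0205) for Atp4a and -0.54 (adjusted p = 0.00235) for Atp4b. Kcnq1, at -0.32 (adjusted p = 0.0504), and Slc26a7 were not called. That fit has 2 WT-A libraries, which are assumed to vary like the other groups.

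With GC offsets over 16 libraries, 7 of the 10 were called lower, where 6.72% of all genes tested were. The log2 fold changes drew together, from -0.22 for Esrrg to -0.53 for Aqp4. Atp4a (-0.30, adjusted p = 0.0298), Atp4b (-0.36, adjusted p = 0.0348) and Kcnq1 (-0.31, adjusted p = 0.0224) were called, while Slc26a7, Aqp4 and Esrrg were not. The offsets for WT-A 3 and WT-A 4 were -0.97 and -1.02 on the log2 scale for Slc26a7 and 0.17 and 0.20 for Atp4a. Kcne2, Slc26a9, Clic6 and Hrh2, 4 of the 10, were called in all 3 fits, and all 10 genes were lower in each of them. The upper-quartile scaling, which moved the split of all calls from 1481 higher and 1361 lower to 2163 higher and 1095 lower, left 6 of the 10 called lower, without Clic6.

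**Figure D2:**
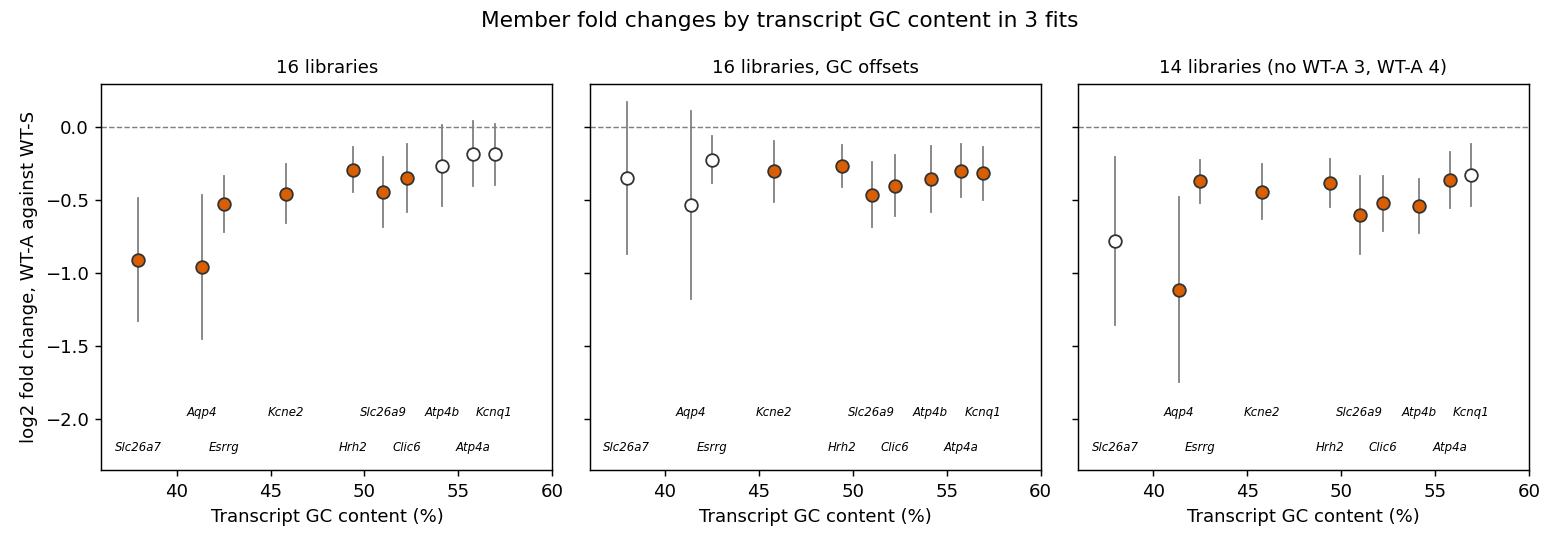
log2 fold change of WT-A against WT-S (vertical axis) against transcript GC content in percent (horizontal axis) for the 10 genes in 3 fits; lines are 95% confidence intervals, filled points have an adjusted p under 0.05, and names stand below their points. With 16 libraries the low-GC genes Slc26a7 and Aqp4 lie farthest below 0 and the high-GC genes Atp4a, Atp4b and Kcnq1 nearest to it, and with the offsets all 10 points stay below 0.

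Markers of other cells are given for the same comparison, in which 9.63% of all genes tested were called higher and 8.85% lower. Their part in the lower acid secretion genes was not tested. Summed smooth muscle markers were at 5739.9 to 6554 CPM in WT-S and 6770.2 to 8279.5 CPM in WT-A, with 4 of 5 called higher. Summed immune markers were at 28.1 to 34.0 CPM in WT-S and 35.2 to 54.9 CPM in WT-A, where 3 of 5 genes were tested and 1, the macrophage gene Cd68, was called higher. Chief cell markers, made by another cell of the same glands, were at 78495 to 153340 CPM in WT-S and 49490 to 103570 CPM in WT-A, with 3 of 5 called lower and 1 higher. Summed surface mucous markers were at 68006 to 76665 CPM in WT-S and 46664 to 62689 CPM in WT-A, with 1 of 5 called lower. Squamous markers of the forestomach were spread from 1.53 to 255 CPM in WT-S and from 49.9 to 1057 CPM in WT-A, with 1 of 8 called higher. Mucous neck and SPEM markers were at 941 to 3214 CPM in WT-S and 2121 to 2712 CPM in WT-A, with 1 of 6, Cd44, called higher. No marker in these 6 lists was at 0 in all libraries of a group. Summed antral markers were at 1.70 to 3.97 CPM in WT-S and 4.87 to 6.35 CPM in WT-A, without overlap.

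In TTPΔARE mice, all 10 genes also had negative log2 fold changes after adrenalectomy, as did 50.3% of all genes tested, but none passed the test. In the fit of all 16 libraries each estimate was nearer to 0 than in WT, which with GC offsets did not hold for Slc26a7 and Aqp4, which were then at -0.43 (adjusted p = 0.347) and -0.60 (adjusted p = 0.282) in TTPΔARE. The 16-library fit gave a median log2 fold change of -0.13 against -0.0010 over all tested genes. Over all genes tested, 1.23% were called lower. At an unadjusted p under 0.05 edgeR found 2 of the 10 genes, Slc26a7 and Aqp4, where 15.7% of all genes tested had such a p. DESeq2 also called 0, where it called 5.44% of all genes tested in either direction. The fit of limma voom with sample weights called 4 lower, where it called 7.36% of all genes tested lower. With the 14 libraries and with GC offsets 0 of the 10 were called, where 3.03% and 2.39% of all genes tested were called lower. The 4 TTP-A libraries all lay below the 4 TTP-S libraries for Atp4a, Slc26a7 and Aqp4, that is for 3 of the 10 genes, where 6.77% of all genes tested did so.

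The gene with the largest difference was again Aqp4, at 76.6, 86.9, 76.0 and 69.7 CPM in TTP-S libraries 1 to 4 and 34.1, 56.0, 69.7 and 41.6 CPM in TTP-A libraries 1 to 4. TTP-A 3 came within a rounding step of the lowest TTP-S library, so the groups were barely apart. This was a log2 fold change of -0.62 (SE 0.227, adjusted p = 0.175). Slc26a7 was at 21.3, 25.4, 24.6 and 21.5 CPM in TTP-S and 12.4, 21.1, 17.7 and 16.5 CPM in TTP-A, with TTP-A 1 the lowest. Its log2 fold change was -0.46 (SE 0.196, adjusted p = 0.256). Atp4a was at 12623, 13304, 12827 and 13397 CPM in TTP-S and 10755, 12556, 12475 and 11295 CPM in TTP-A, a log2 fold change of -0.15 (SE 0.105, adjusted p = 0.583). All 3 genes were lowest in TTP-A 1. Esrrg was at 355, 392, 362 and 382 CPM in TTP-S and 332, 356, 381 and 329 CPM in TTP-A, with overlap. Its log2 fold change was -0.093 (SE 0.0919, adjusted p = 0.729), with a 95% confidence interval of -0.29 to 0.10, while the interval in WT was -0.72 to -0.33. With GC offsets these intervals overlapped, at -0.23 to 0.086 in TTPΔARE and -0.38 to -0.061 in WT.

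The other 6 genes overlapped between TTP-S and TTP-A. Atp4b ranged from 5676 to 6217 CPM in TTP-S and from 4748 to 6001 CPM in TTP-A (log2 fold change -0.16, adjusted p = 0.647), and Clic6 from 1772 to 1966 and 1459 to 1806 CPM (log2 fold change -0.18, adjusted p = 0.484). Kcne2 ranged from 215 to 250.2 CPM in TTP-S and from 188 to 246 CPM in TTP-A, a log2 fold change of -0.11 (adjusted p = 0.677). For Kcnq1 the log2 fold change was -0.083 (adjusted p = 0.795), for Slc26a9 -0.090 (adjusted p = 0.809) and for Hrh2 -0.047 (adjusted p = 0.859). The 95% confidence interval for Hrh2, -0.20 to 0.11, was the narrowest, and those of all 10 genes reached to -0.20 or lower. Summed immune markers were at 28.8 to 36.2 CPM in TTP-S and 39.8 to 56.0 CPM in TTP-A, so they did not overlap either, with Ptprc called higher, and smooth muscle markers overlapped, at 5001 to 7033 and 5472 to 6580.1 CPM. Summed surface mucous markers were at 73031 to 78032 CPM in TTP-S and 39801 to 69980 CPM in TTP-A, with Muc5ac called lower, and adipocyte markers at 217 to 346 and 123 to 181 CPM, with 1 of 5 called lower. Summed mucous neck and SPEM markers were at 887 to 1178 CPM in TTP-S and 1347 to 4018 CPM in TTP-A, without overlap, although 0 of 6 were called. Among them Muc6, a mucin of mucous neck cells, had a log2 fold change of 2.13 (adjusted p = 0.0603). Chief cell markers overlapped, at 127160 to 134230 and 93808 to 143590 CPM, with 1 of 5 called higher, Bhlha15 at 0.66 (adjusted p = 0.0445). Over all genes tested, 1.34% were called higher and 1.23% lower in this comparison. The part of these markers in the values of the acid secretion genes was not tested.

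**Figure D3:**
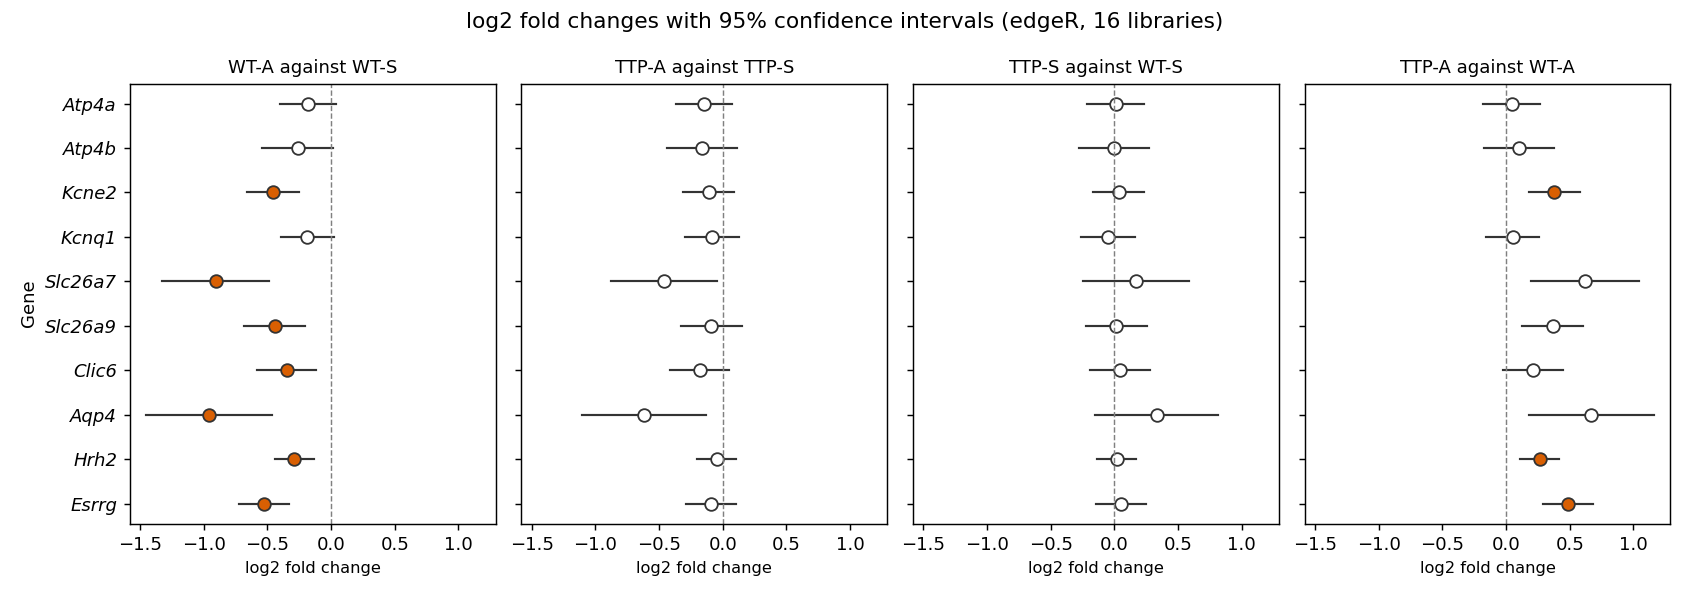
log2 fold change (horizontal axis) of each of the 10 genes (vertical axis) in 4 comparisons of the 16-library fit; points are estimates, lines 95% confidence intervals, and filled points have an adjusted p under 0.05. All 10 estimates are below 0 after adrenalectomy in both genotypes, 7 filled in WT and 0 in TTPΔARE, they lie around 0 between genotypes in S, and 3 are filled above 0 between genotypes in A.

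Without adrenalectomy, none of the 10 genes was called between the genotypes. Over all genes tested, 0.0325% were called. At an unadjusted p under 0.05 edgeR found 0 of the 10, where 7.37% of all genes tested had such a p. DESeq2 and limma voom also called 0, where they called 0.617% and 1.16% of all genes tested. The log2 fold change was positive for 8 genes and negative for 2, where 50.2% of all genes tested were negative, and the lowest adjusted p was 0.861. Groups without overlap were found for 0 of the 10, against 3.5% of all genes tested with TTP-S higher and 3.24% with TTP-S lower. Atp4a averaged 12936 ± 1159.8 CPM for WT-S against 13038 ± 372 CPM for TTP-S (SD, n = 4), a log2 fold change of 0.011 with a 95% confidence interval of -0.21 to 0.23. Aqp4, the gene with most copies of the TTP heptamer in its 3′ UTR, averaged 61.4 ± 14.4 CPM for WT-S against 77.3 ± 7.13 CPM for TTP-S. Its interval was the widest upward, -0.15 to 0.81. Slc26a7 was at 20.6 ± 5.97 and 23.2 ± 2.10 CPM (interval -0.24 to 0.58), and Esrrg at 359 ± 21.9 and 373 ± 17.2 CPM (interval -0.14 to 0.25). These intervals leave room for changes of that size, and the result does not show equal levels. Summed adipocyte markers were at 159.8 to 213 CPM in WT-S and 217 to 346 CPM in TTP-S, and antral markers at 1.70 to 3.97 and 4.01 to 6.37 CPM, both without overlap, and their part in these values was not tested.

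After adrenalectomy, all 10 genes had positive log2 fold changes of TTPΔARE against WT, where 50.6% of all genes tested were negative, and 3 of the 10 were called higher. These were Esrrg, with a log2 fold change of 0.48 (SE 0.0922, adjusted p = 0.0137), Kcne2 at 0.38 (SE 0.0951, adjusted p = 0.0352) and Hrh2 at 0.26 (SE 0.0726, adjusted p = 0.0469). Over all genes tested, 2.83% were called higher. This comparison shares the WT-A libraries with the adrenalectomy comparison in WT, so the values of both stand side by side and are not independent. Esrrg was at 285, 271, 195 and 247 CPM in WT-A and 332, 356, 381 and 329 CPM in TTP-A, without overlap. Hrh2 was at 66.5, 72.4, 79.0 and 77.9 and 82.2, 97.6, 87.4 and 87.9 CPM, also without overlap, which held for 2 of the 10 genes and for 5.99% of all genes tested. Kcne2 was at 167, 165, 135 and 189.7 CPM in WT-A and 188, 214, 246 and 206 CPM in TTP-A. Only TTP-A 1 fell below the highest WT-A library.

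The transporters Aqp4 (0.67, adjusted p = 0.0915), Slc26a7 (0.62, adjusted p = 0.0750) and Slc26a9 (0.37, adjusted p = 0.0644) had log2 differences that were not called with 16 libraries. With GC offsets these were 0.28 (adjusted p = 0.624) for Aqp4 and 0.10 (adjusted p = 0.841) for Slc26a7, and with the 14 libraries 0.82 (adjusted p = 0.151) and 0.49 (adjusted p = 0.348). The pump genes were at 0.045 (adjusted p = 0.806) for Atp4a and 0.10 (adjusted p = 0.639) for Atp4b with 16 libraries, Kcnq1 at 0.053 (adjusted p = 0.756) and Clic6 at 0.21 (adjusted p = 0.229). For Atp4a and Kcnq1 the values, none called, were 0.22 (adjusted p = 0.187) and 0.19 (adjusted p = 0.314) with the 14 libraries and 0.15 (adjusted p = 0.318) and 0.17 (adjusted p = 0.269) with GC offsets, where Atp4b was at 0.19 (adjusted p = 0.305) and Clic6 at 0.27 (adjusted p = 0.125). With the 14 libraries 6 of the 10 were called higher (1.47% of all genes tested), namely Atp4b at 0.38 (adjusted p = 0.0359), Slc26a9 at 0.53 (adjusted p = 0.0459) and Clic6 at 0.38 (adjusted p = 0.0351) besides the first 3. With GC offsets 2 were called (2.08% of all genes tested), Hrh2 at 0.25 (adjusted p = 0.0470) and Slc26a9 at 0.40 (adjusted p = 0.0449), and only Hrh2 was called in all 3 fits. With the offsets Esrrg was at 0.21 (adjusted p = 0.117) and Kcne2 at 0.25 (adjusted p = 0.155), neither called. The call for Hrh2 held only when WT-A 1 was the library left out, and otherwise the adjusted p was 0.0548 (without WT-A 2), 0.0868 (WT-A 3), 0.0514 (WT-A 4), 0.0511 (TTP-A 1), 0.124 (TTP-A 2), 0.106 (TTP-A 3) and 0.0905 (TTP-A 4). The call for Esrrg was lost without TTP-A 3 (adjusted p = 0.0575), and that for Kcne2 without WT-A 3 (0.110), TTP-A 2 (0.0782), TTP-A 3 (0.115) or TTP-A 4 (0.0681). Slc26a9 was called without WT-A 4 (0.0311) or TTP-A 1 (0.0485), and Clic6 without WT-A 4 (0.0274). When edgeR was fitted on these groups alone, none of the 10 was called (0.0266% of all genes tested). Of 5 chief cell markers, 2 (Bhlha15 and Chia1) were called higher in TTP-A (2.83% of all genes tested). The chief cell sums were 49490 to 103570 CPM in WT-A and 93808 to 143590 CPM in TTP-A. Of 5 smooth muscle markers, 3 were called lower in TTP-A (2.32% of all genes tested). The smooth muscle sums were 6770.2 to 8279.5 CPM in WT-A and 5472 to 6580.1 CPM in TTP-A. The part of both marker lists in the difference of the acid secretion genes was not tested.

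Whether the genotypes responded differently to adrenalectomy was tested by the interaction in the same fit, and none of the 10 genes was called. Over all genes tested, 0.0455% were called. All 10 interaction estimates were positive with 16 libraries, where 49.7% of all genes tested were negative. A positive value means a smaller decrease in TTPΔARE. edgeR gave 4 of them an unadjusted p under 0.05, where 14.8% of all genes tested had one. DESeq2 and limma voom also called 0 of the members, where they called 1.71% and 1.32% of all genes tested. With 16 libraries these 4 were Esrrg at 0.43 (SE 0.130, adjusted p = 0.174), Slc26a9 at 0.35 (SE 0.160, adjusted p = 0.320), Kcne2 at 0.35 (SE 0.134, adjusted p = 0.262) and Hrh2 at 0.24 (SE 0.103, adjusted p = 0.297). Their order changed with the fit. With the 14 libraries Esrrg was at 0.28 (adjusted p = 0.201) and Slc26a9 at 0.51 (adjusted p = 0.199), and with GC offsets Esrrg was at 0.15 (adjusted p = 0.567), Slc26a9 at 0.38 (adjusted p = 0.275), Kcne2 at 0.21 (adjusted p = 0.531) and Hrh2 at 0.23 (adjusted p = 0.308). The estimate for Atp4a was 0.034, with a 95% confidence interval of -0.28 to 0.35, and it was 0.21 (adjusted p = 0.466) with the 14 libraries and 0.14 (adjusted p = 0.638) with GC offsets. With GC offsets the interaction of Slc26a7 and that of Aqp4 turned negative, at -0.083 and -0.069. A call in WT and none in TTPΔARE is thus not a shown difference between the genotypes.

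Ratios to the pump were compared as well. The ratio of counts of each of the other 9 genes to Atp4a within a library needs no scaling between libraries, and it was compared between A and S by an exact two-sided permutation test, a measure chosen after the data were seen. The smallest p that 4 against 4 libraries allow is 0.0286. Ratios of other tested genes to Atp4a were not counted, so nothing about the members as a set is read from the counts of ratios. In TTPΔARE, 4 of 9 ratios were lower after adrenalectomy, and 0 reached that smallest p. In WT, 8 of 9 ratios were lower after adrenalectomy, and 3 reached that smallest p with no overlap between the groups. These were Aqp4 with a log2 ratio change of -0.77, Slc26a9 with -0.26 and Clic6 with -0.17. Without WT-A 3 and WT-A 4 the changes were -0.72 for Aqp4, -0.24 for Slc26a9 and -0.16 for Clic6, and that of Esrrg went from -0.35 to -0.012. None of the 18 ratios passed after adjustment, the lowest adjusted p being 0.171 in WT and 0.206 in TTPΔARE. The 3 ratios at the smallest possible p had that 0.171. An adjustment over 18 ratios could hardly be passed with 4 against 4 libraries, so nothing is concluded from it. The ratio of Kcnq1 to Atp4a was the exception in WT, with a difference of 0.0078. In counts, Atp4b over Atp4a averaged 0.468 in WT-S against 0.437 in WT-A, and 0.463 in TTP-S against 0.458 in TTP-A.

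Across the 16 libraries, the members tracked the pump to different degrees. The log2 CPM of Atp4a correlated with that of Atp4b at Pearson r = 0.953, with Kcnq1 at 0.924, with Clic6 at 0.889, with Aqp4 at 0.803 and with Slc26a9 at 0.780. The values were lower for Slc26a7 (0.640), Hrh2 (0.635), Kcne2 (0.607) and Esrrg (0.430). After the group means were removed, Atp4b was at 0.937 and Esrrg at 0.048. Esrrg was closer to Kcne2, at 0.901 and 0.626. The libraries share their depth, scaling and GC trend across genes, so these values are descriptions. The genes outside the 10 whose pattern was most like the mean of the members, among 11146 candidates with a mean of at least 5 CPM, were Sod2 (Pearson r = 0.982), Cobl (0.978), Acat1 (0.973), Mccc1 (0.973), Pcca (0.973) and Sept6 (0.969). Those most like Atp4a alone were Macrod1 (0.961), Qdpr (0.953), Pacsin2 (0.952), Nipsnap2 (0.951), D10Jhu81e (0.947) and Ckb (0.947). The lists for the mean and for Atp4a held different genes.

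Among other genes of the acid secretion pathway, those of ion transport and pH made up 4 of the 11 calls in WT. In 5 lists of 44 genes, 43 were tested, and in WT 9 were called lower and 2 higher after adrenalectomy (8.85% and 9.63% of all genes tested). In TTPΔARE 0 were called lower and 1 higher (1.23% and 1.34% of all genes tested). Between genotypes 0 were called in S, while in A 5 were called higher in TTPΔARE and 0 lower (2.83% and 2.32% of all genes tested), and 0 had a called interaction. With the 14 libraries the counts in WT were 11 lower and 3 higher (5.67% and 4.37% of all genes tested), and with GC offsets 14 lower and 4 higher (6.72% and 8.11%). Some genes not called with 16 libraries were called in both of these fits, and their log2 fold changes are given with the 14 libraries first. Lower in both were Esrrb, a nuclear receptor related to Esrrg, at -0.63 (adjusted p = 0.00796) and -0.48 (adjusted p = 0.0127), the growth factor gene Vegfb at -0.46 (adjusted p = 0.0124) and -0.44 (adjusted p = 0.00735), Chga, which encodes chromogranin A of endocrine cells, at -0.97 (adjusted p = 0.0206) and -0.70 (adjusted p = 0.0375), and Hip1r, which encodes a clathrin and actin binding protein, at -0.19 (adjusted p = 0.0470) and -0.16 (adjusted p = 0.0336). Higher in both were Stx3, which encodes the membrane fusion protein syntaxin 3, at 0.35 (adjusted p = 0.00787) and 0.26 (adjusted p = 0.0336), and the chloride channel gene Cftr at 1.79 (adjusted p = 0.0249) and 1.53 (adjusted p = 0.0213). Besides Cckbr, GC offsets alone added Vamp2 at -0.20 (adjusted p = 0.0131), Gnas at -0.16 (adjusted p = 0.0477) and Rab11a at 0.17 (adjusted p = 0.0169). Between the genotypes in A, Esrrb was called higher with the 14 libraries (0.55, adjusted p = 0.0401) and Rab11a lower with GC offsets (-0.21, adjusted p = 0.0171). Gast, the gene of the antral hormone gastrin, was the gene not tested and was at 0 in all 4 WT-S libraries.

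Of 10 ion transport and pH genes, 4 were called lower and 0 higher in WT (8.85% and 9.63% of all genes tested). Kcnj16, an inwardly rectifying potassium channel subunit, went from 508 ± 43.9 to 275 ± 53.9 CPM, a log2 fold change of -0.89 (SE 0.121, adjusted p = 0.000855). Kcnj15, of the same channel family, went from 779.9 ± 70.4 to 560.5 ± 31.4 CPM, a log2 fold change of -0.48 (SE 0.0741, adjusted p = 0.00151). Slc12a2, the sodium, potassium and chloride cotransporter that loads cells with chloride, went from 395 ± 47.2 to 238 ± 78.7 CPM, a log2 fold change of -0.73 (SE 0.170, adjusted p = 0.0115). These 3 genes were called in all 8 fits that left out 1 library, with the 14 libraries and with GC offsets, although Slc12a2 was then nearer to 0 with the 14 libraries, at -0.37 (adjusted p = 0.0148). Slc9a2, a basolateral sodium and proton exchanger, was called lower at -0.20 (adjusted p = 0.0496), and lost the call without any 1 of WT-S 1, 2, 3 and 4 (adjusted p = 0.151 without WT-S 4), WT-A 3 and WT-A 4, and with the 14 libraries (-0.11, adjusted p = 0.239). In TTPΔARE the log2 fold changes were -0.29 (adjusted p = 0.246) for Kcnj16, -0.24 (adjusted p = 0.0945) for Kcnj15 and -0.20 (adjusted p = 0.659) for Slc12a2. All 3 were called higher in TTP-A than in WT-A, at 0.64 (adjusted p = 0.0137), 0.31 (adjusted p = 0.0290) and 0.66 (adjusted p = 0.0400), in the fit of all 16 libraries. With the 14 libraries none of the 3 was called, at 0.44 (adjusted p = 0.0609), 0.28 (adjusted p = 0.0972) and 0.30 (adjusted p = 0.0775), and with GC offsets Kcnj15 was not, at 0.21 (adjusted p = 0.0898), while Kcnj16 was called at 0.41 (adjusted p = 0.0183). Among the fits that left out 1 library, Kcnj16 lost the call without TTP-A 3 (adjusted p = 0.0558), Kcnj15 without WT-A 3 (0.0978), TTP-A 2, TTP-A 3 or TTP-A 4, and Slc12a2 without WT-A 3 (0.109), WT-A 4 or any library of TTP-A. Car2, the carbonic anhydrase that supplies protons and bicarbonate, and Slc4a2, the basolateral bicarbonate exchanger, were not called in WT, at 0.30 (adjusted p = 0.0725) and -0.0061 (adjusted p = 0.974). Slc4a2 was, however, called lower in WT-A against WT-S at -0.30 (adjusted p = 0.00322) and higher in TTP-A against WT-A at 0.26 (adjusted p = 0.0164) with the 14 libraries.

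Of 12 genes of tubulovesicle traffic and the cytoskeleton, 1 was called lower and 1 higher in WT. This is near the shares of all genes tested, 8.85% and 9.63%. Rab11fip2, an effector of the recycling GTPase Rab11, was at -0.59 (adjusted p = 0.0313), and Cttn, which encodes the actin-binding protein cortactin, at 0.17 (adjusted p = 0.0356). Both lost their call without WT-S 2, WT-S 3, WT-S 4, WT-A 3 or WT-A 4, to adjusted p of up to 0.103 and 0.115, and in both other fits. Rab11fip2 was then at -0.23 (adjusted p = 0.166) with the 14 libraries and -0.26 (adjusted p = 0.0628) with GC offsets, and Cttn at 0.14 (adjusted p = 0.142) and 0.11 (adjusted p = 0.145). Ezr, which encodes ezrin of the apical canaliculus, was at 2289.7 ± 40.7 to 2296 ± 285 CPM with a log2 fold change of 0.0042 (adjusted p = 0.972). Of 8 receptor and signalling genes, Sstr2, the somatostatin receptor that restrains secretion, was called lower at -0.45 (adjusted p = 0.0226) and lost the call without WT-S 2, WT-S 4 (adjusted p = 0.0779) or WT-A 3. Akap10, a kinase anchor, was called lower at -0.32 (adjusted p = 0.0386) and lost it without any 1 of WT-S 1, 2, 3 and 4, WT-A 3 (adjusted p = 0.119) and WT-A 4, with the 14 libraries (-0.14, adjusted p = 0.332) and with GC offsets (-0.19, adjusted p = 0.0872). Ptger3, the prostaglandin E receptor EP3, which also restrains secretion, was called higher at 0.58 (adjusted p = 0.0101) and kept the call whichever library was left out, with the 14 libraries and with GC offsets. In the 14-library fit it was also called higher in TTP-A against TTP-S, at 0.37 (adjusted p = 0.0278), and lower in TTP-A against WT-A, at -0.51 (adjusted p = 0.0225). The gastrin receptor Cckbr (-0.61, adjusted p = 0.0684) and the muscarinic receptor Chrm3 (0.12, adjusted p = 0.346) were not called. Cckbr was called lower with GC offsets, at -0.74 (adjusted p = 0.0314), and was at -0.93 (adjusted p = 0.0517) with the 14 libraries.

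Of 4 tested genes of endocrine stimuli, 1 was called lower in WT (8.85% of all genes tested). Slc18a2, the transporter that loads histamine into vesicles of enterochromaffin-like cells, went from 31.2 ± 5.36 to 19.1 ± 2.47 CPM, a log2 fold change of -0.71 (SE 0.122, adjusted p = 0.00238). It was 0.12 (adjusted p = 0.752) in TTPΔARE and 0.72 (adjusted p = 0.00961) between the genotypes after adrenalectomy. GC offsets brought it to -0.42 (adjusted p = 0.0338) in WT and 0.46 (adjusted p = 0.0483) between the genotypes, both still called. Hdc, which makes histamine, was not called in WT at -0.89 (adjusted p = 0.0684), but was called at -1.56 (adjusted p = 0.0138) with the 14 libraries and was at -0.99 (adjusted p = 0.0522) with GC offsets. Of 9 transcription and secreted factors, the morphogen gene Shh was called lower in WT at -0.40 (adjusted p = 0.0120) and kept the call in all 8 fits that left out 1 library, but not with the 14 libraries, at -0.25 (adjusted p = 0.0962). Gata4, a transcription factor of gastric epithelium, was the gene called higher in TTPΔARE, at 0.27 (adjusted p = 0.0409), and kept the call only when TTP-A 2 was left out (adjusted p otherwise up to 0.135, without TTP-S 4). Ppargc1a, a coactivator of mitochondrial genes, was higher in TTP-A than in WT-A at 0.78 (adjusted p = 0.0363) and lost the call without WT-A 3 (adjusted p = 0.122), WT-A 4, TTP-A 2, TTP-A 3 or TTP-A 4. It was not called with the 14 libraries, at 0.68 (adjusted p = 0.208), or with GC offsets, at 0.46 (adjusted p = 0.211).

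**Figure D4:**
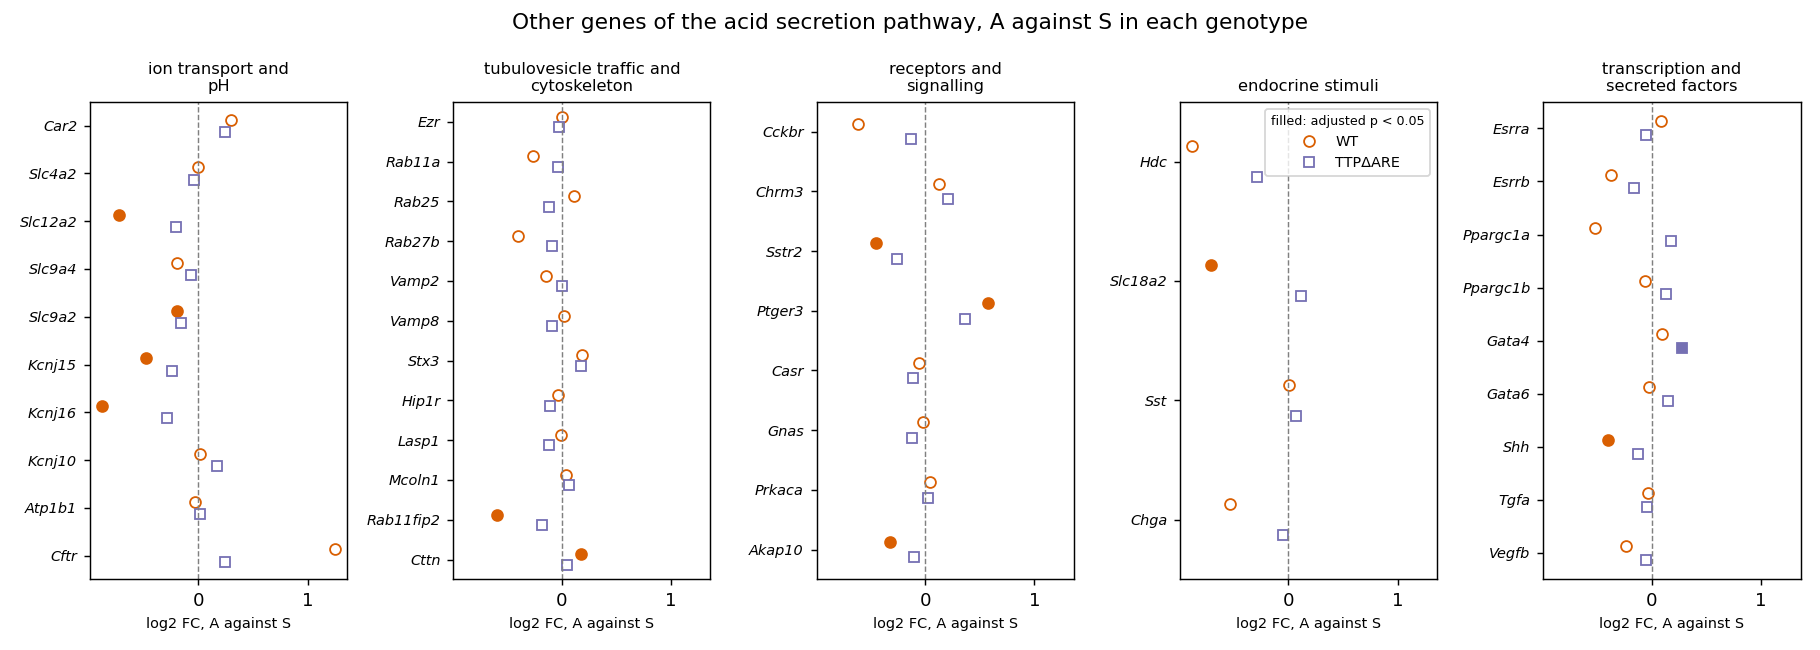
log2 fold change of A against S (horizontal axis) for 43 other genes of the pathway in 5 lists (vertical axis), circles for WT and squares for TTPΔARE; filled symbols have an adjusted p under 0.05. In WT 11 circles are filled, 9 to the left of 0 with Kcnj16, Slc12a2 and Slc18a2 farthest out, and in TTPΔARE the 1 filled square is Gata4.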

How the data were processed

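RNA was sequenced from 16 corpus biopsies, with TruSeq libraries from total RNA per the labels' protocols. The authors' deposited file is a single table of counts, raw whole numbers for each gene symbol. The submitters' processing notes name STAR 2.7.0f, featureCounts, Subread 1.6.4, DESeq2 and the build mm10, without order or settings. Annotation, strandedness and filters are not given in the sources used here. Groups came from the sample titles, and nothing says that libraries came from separate mice, so p-values measure the spread between these samples, which may be technical. No 2 libraries of a group were near-copies of each other (chi-square over degrees of freedom at least 4.69 in 24 pairs).

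Counts were analysed in R 4.3.3 with edgeR 4.0.16 (filterByExpr, TMM scaling, quasi-likelihood fit with a mean per group over 16 libraries, Benjamini-Hochberg over 15385 genes). CPM uses TMM-scaled totals, and log2 CPM a prior count of 2. Standard errors follow from the fold change and its F statistic. GC content, lengths and UTRs came from GENCODE M21 (GRCm38). GC offsets were loess curves with a span of 0.5. Alternatives included DESeq2 1.42.0 and limma 3.58.1 voom, other scalings and filters, a minimum log2 fold change of 0.5, a replicate block, 14 libraries and leaving out each library. Counts of groups without overlap under other settings, the ratios to Atp4a and the repeated fits for pathway genes were added after seeing the data. Genes named are the 10 members, up to 4 called genes per pathway list and comparison with the largest change, and for likeness the 6 genes with the highest Pearson r. Ezr, Car2, Slc4a2, Cckbr, Chrm3, Hdc, Esrrb, Vegfb, Chga, Hip1r, Stx3, Cftr, Vamp2, Gnas, Rab11a and single cell type markers were named outside this rule, after their values were seen. The members and lists were chosen with earlier results of these data known. An item of the ion transport list is not reported here. The procedure was tested on simulated data. The depth of 17453930 to 25849472 counts sets the precision of low genes, the lowest member count being 210.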

Additional observations from a re-analysis of the deposited data

Results flagged for a closer look

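Clic6 in WT-A was the only group of a member in which 1 library stood far from the others. WT-A 4 was at 1819 CPM and the nearest library, WT-A 3, at 1292 CPM, so the gap took 0.856 of the range of the group, above Dixon's 95% critical value for 4 samples. Groups were examined for all 10 genes in 4 groups, 40 in all, and chance alone flags about 1 in 20. Without WT-A 4, the log2 fold change of Clic6 in WT was -0.50 (edgeR, adjusted p = 0.00171), against -0.35 with it. WT-A 4 is among the libraries set apart by GC content, as WT-A 3 is. The GC offsets of Clic6 on the log2 scale were close to each other in these libraries, at 0.078 in WT-A 3 and 0.096 in WT-A 4. The part of the GC trend in the Clic6 value of WT-A 4 was not tested.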

How the results depend on the processing

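Counts of called members moved by more than 1.5 times in some fits. In WT-A against WT-S the 7 calls (18.5% of all genes tested were called in either direction) became 0 with a minimum log2 fold change of 0.5 (0.117%) and 4 when only the groups compared were fitted (4.44%), and ranged from 3 (without WT-S 2, 8.05%) to 10 (without WT-A 4, 14.2%) when each library was left out. In TTP-A against TTP-S the 0 calls (2.57%) became 4 with limma voom (15.0%). In TTP-A against WT-A the 3 calls (5.15%) became 6 with the 14 libraries (2.06%), 6 with DESeq2 (11.1%), 5 with limma voom (5.26%), 0 with the minimum fold change (0.0195%) and 0 with only the groups compared (0.0266%), and ranged from 0 (without TTP-A 3, 0.567%) to 4 (without WT-A 4, 3.21%) when each library was left out. Over all genes and the settings that leave out no single library, the 2842 calls of WT-A against WT-S ranged from 18 (minimum fold change) and 668 (only the groups compared) to 3485 (DESeq2), the 395 of TTP-A against TTP-S from 15 to 2308 (limma voom), the 5 of TTP-S against WT-S from 0 to 178, the 793 of TTP-A against WT-A from 3 to 1619 and the 7 interactions from 0 to 256. Leaving out each library gave 1246 (without WT-S 2) to 4866 (without WT-A 1), 64 (without TTP-A 1) to 925 (without TTP-A 2), 1 (in 3 of these fits, without WT-S 3, WT-S 4 or TTP-S 2) to 13 (without WT-S 2), 88 (without TTP-A 3) to 3120 (without WT-A 1) and 2 (without WT-S 3, WT-S 4, TTP-S 3 or TTP-S 4) to 250 (without WT-A 1) calls in the same order. Fewer libraries leave fewer degrees of freedom, and otherwise the cause was not tested. With the 14 libraries, the members without overlap went from 4 to 8 in WT-A against WT-S, where the share of all genes tested that were lower without overlap went from 8.48% to 16.9%, and from 2 to 9 in TTP-A against WT-A, where the share that were higher went from 5.99% to 15%, with 2 WT-A libraries left to compare. In TTP-A against WT-A it was 1 with upper-quartile scaling. Leaving out each library gave 4 to 7, 3 to 5 (TTP-A against TTP-S), 0 to 2 (TTP-S against WT-S) and 2 to 6 members without overlap. The share of all genes tested was not counted for upper-quartile scaling or with a library left out. Fewer libraries make groups without overlap more frequent for any gene, so nothing about the members is read from these counts. Of the other pathway genes, calls in TTP-A against WT-A went from 5 higher and 0 lower to 3 higher and 1 lower with the 14 libraries and with GC offsets, and calls in TTP-A against TTP-S from 1 to 2 higher with the 14 libraries. Upper-quartile scaling changed all calls in TTP-A against WT-A from 436 higher and 357 lower to 417 higher and 678 lower.

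Replicate numbers did not pair the libraries: same-numbered deviations correlated at -0.199 to 0.242 in WT and -0.325 to 0.154 in TTPΔARE, and 2 and 0 of 4 libraries correlated best with their own number. With the replicate block 7, 0, 0 and 3 members were called in the 4 pairwise comparisons and 0 in the interaction, as without it. Of all genes tested, that fit called 17.8%, 2.68%, 0.052%, 4.34% and 0.0325% in the same order.

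Directions turned only for log2 fold changes that were not called. Between the genotypes in S, Atp4b became 0.0013 with upper-quartile scaling, 0.00062 with a filter of 1 CPM in 4 libraries and 0.0028 with the replicate block, and Atp4a -0.0067 with limma voom. With upper-quartile scaling Atp4a became -0.00098 between the genotypes in A and -0.014 in the interaction. With GC offsets the interaction became -0.083 for Slc26a7 and -0.069 for Aqp4. Leaving out each library gave, between the genotypes in S, -0.050 to 0.045 for Atp4a, -0.037 to 0.030 for Atp4b, -0.0073 to 0.069 for Kcne2, -0.14 to 0.023 for Kcnq1, -0.019 to 0.26 for Slc26a7, -0.016 to 0.081 for Slc26a9 and -0.019 to 0.064 for Hrh2. Between the genotypes in A it gave -0.020 to 0.17 for Atp4a and -0.0017 to 0.15 for Kcnq1, and in the interaction -0.031 to 0.16 for Atp4a. The directions of all 10 members in both adrenalectomy comparisons were kept in every fit.

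Counts give only RNA per tissue. Slc26a7 and Aqp4 rest on the fewest counts and have the widest intervals. The GC trend of WT-A 3 and WT-A 4 bears on every comparison with WT-A, and the 14-library fit has 2 WT-A libraries.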
